A study of Homo sapiens with 16 samples.

Results

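A set of 10 genes of the class 3 semaphorin system was followed in HCT116 cells, a widely used line grown from a human colon carcinoma. They were the secreted ligands SEMA3A, SEMA3B, SEMA3C, SEMA3D and SEMA3F, the neuropilin co-receptors NRP1 and NRP2, and the plexin receptors PLXNA1, PLXNA2 and PLXND1. The 10 genes were taken by symbol from the 22916 genes of the deposited expression table and were chosen by a rule made with their values in the 4 groups known. Their levels and fold changes are therefore a description, and no p-value is given for them. Statements below that these genes pass, or no longer pass, the threshold for all genes (adjusted p under 0.05) belong to that description. They show how far the fitted values depend on single libraries and settings, and are not test results. All 10 also passed the filter on low counts, which kept 17104 genes for testing.

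The series, whose title concerns proteasome activity and cell type-specific expression, profiled RNA from 4 groups of 4 libraries, 16 in all. Truncation knockdown cells were HCT116 edited to carry a shortened Rpn10 and transfected with a mix of 4 siRNAs against OTUD5. Truncation scramble cells carried the same edit and received a scrambled siRNA. WT knockdown and WT scramble cells were unedited HCT116 given the OTUD5 mix or the scrambled siRNA. Every cell in the design was thus transfected, with 50 nM siRNA for 48 hours and the same lipid reagent. Rpn10, the product of PSMD4, helps the proteasome capture ubiquitin-tagged proteins. The shortened form has lost the motif that binds ubiquitin. OTUD5 is a deubiquitinase. How many edited clones were used is not given in the sources used here, so the truncation and any trait of the edited line cannot be told apart.

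Class 3 semaphorins are secreted proteins, first known for steering growing axons and later for acting on blood vessels, immune cells and tumour cells. They bind neuropilins, which have short cytoplasmic tails, and the signal is carried into the cell by plexins, whose intracellular part acts on small GTPases of the Rap and R-Ras type. Neuropilins are shared with the VEGF system, and in epithelial cancers several of the ligands, SEMA3B and SEMA3F among them, are described as restraining tumour growth.

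Library totals lay between 28777244 and 29645663 counts. OTUD5 averaged 20.7 CPM in truncation knockdown and 94.9 CPM in truncation scramble cells, and 20.02 CPM in WT knockdown and 88.5 CPM in WT scramble cells. PSMD4 was expressed in every library, at 306.7 to 336.1 CPM in truncation knockdown and 197.7 to 207.7 CPM in truncation scramble cells. It lay at 228.3 to 289.7 CPM in WT knockdown and 225.3 to 255.2 CPM in WT scramble cells. The gene's total count cannot show whether the protein is shortened. Of 10 colon epithelium markers, EPCAM, CDH1, KRT8, KRT18, KRT19 and CDX2 were expressed in every group, while CDX1, CDH17 and VIL1 lay under 1 CPM in all 4 groups, and KRT20 did so in both knockdown groups. CDH1 averaged 28.4 CPM in truncation knockdown, 28.5 CPM in truncation scramble, 59.6 CPM in WT knockdown and 51.8 CPM in WT scramble cells. EPCAM averaged 112.5 CPM in truncation knockdown, 178.1 CPM in truncation scramble, 175.8 CPM in WT knockdown and 220.5 CPM in WT scramble cells. KRT8 and KRT18 instead averaged highest in truncation knockdown cells, KRT18 at 614.9 to 764.4 CPM against 381.5 to 587.9 CPM in WT knockdown cells. KRT19 averaged lowest there, at 886.3 to 1015 CPM against 1153 to 1401 CPM in WT knockdown cells. CDX2 lay at 17.93 to 23.34 CPM over all libraries. The markers thus did not share 1 direction. Several differed between the same groups as the genes described below, and their part in those differences was not tested. The endothelial list had 0 of 5 markers at 1 CPM in any group. The summed level of the fibroblast list was 33.9 to 56.0 CPM, and that of the neuron list 71.2 to 102 CPM, over all libraries. Most of each sum was 1 gene, COL1A1 at 31.5 to 55.8 CPM and SYT1 at 66.7 to 94.7 CPM, while DCN, LUM, PDGFRB, SNAP25 and STMN2 averaged under 1 CPM in all 4 groups. WT knockdown replicate 2 differed most from its own group, and WT knockdown replicate 3 detected 32264 genes, where each of the others detected 25626 to 27765. In WT scramble replicate 4 the leukocyte gene PTPRC had 326 counts, against 1 to 25 in the other 15 libraries. In bulk RNA, fewer cells of a kind and less RNA per cell cannot be told apart.

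Levels below are CPM, counts divided by a library size that TMM scaling adjusts for composition, as deposited. Fold changes are edgeR estimates on the log2 scale ± their standard error, n = 4 libraries per group, and groups are said to overlap when the ranges of their libraries do.

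The promoters of SEMA3B, SEMA3F and PLXND1 are shown because these genes were lower after OTUD5 knockdown in both genotypes, with no overlap between libraries. RefSeq windows (GRCh38.p14) from 250 bases before to 50 bases after a listed start were matched for 8 of the 10 genes, in 15 windows. The window nearest the principal start is printed for each gene in its own reading direction, with capitals marking the GC box GGGCGG on either strand. The windows are chr3:50267402-50267701 (plus strand) for SEMA3B, chr3:50154808-50155107 (plus strand) for SEMA3F and chr3:129606627-129606926 (minus strand) for PLXND1.
SEMA3B: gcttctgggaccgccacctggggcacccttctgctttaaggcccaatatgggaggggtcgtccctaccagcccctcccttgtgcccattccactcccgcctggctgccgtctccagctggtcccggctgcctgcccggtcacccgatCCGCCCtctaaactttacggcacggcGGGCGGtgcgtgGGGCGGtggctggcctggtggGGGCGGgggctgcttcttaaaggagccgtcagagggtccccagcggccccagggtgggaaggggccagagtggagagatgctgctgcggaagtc
SEMA3F: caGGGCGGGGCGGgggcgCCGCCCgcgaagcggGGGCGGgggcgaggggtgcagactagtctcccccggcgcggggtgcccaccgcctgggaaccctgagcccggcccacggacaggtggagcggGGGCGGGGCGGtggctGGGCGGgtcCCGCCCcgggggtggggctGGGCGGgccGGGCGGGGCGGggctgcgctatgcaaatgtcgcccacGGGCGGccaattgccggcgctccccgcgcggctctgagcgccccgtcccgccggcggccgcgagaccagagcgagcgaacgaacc
PLXND1: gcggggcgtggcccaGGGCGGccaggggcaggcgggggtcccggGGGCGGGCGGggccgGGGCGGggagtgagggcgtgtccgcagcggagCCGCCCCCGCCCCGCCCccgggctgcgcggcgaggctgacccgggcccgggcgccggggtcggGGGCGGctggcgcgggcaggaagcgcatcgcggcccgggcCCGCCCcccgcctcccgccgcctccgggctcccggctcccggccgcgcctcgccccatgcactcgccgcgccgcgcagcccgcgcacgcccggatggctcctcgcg
The SEMA3B window had a GC content of 68.7% with 18 CpG dinucleotides and 4 GC boxes. The SEMA3F window had 81.3% GC, 44 CpG and 12 GC boxes. The PLXND1 window had 87.3% GC, 52 CpG and 9 GC boxes. Among all 35114 windows of the table the median was 58.7% GC and 14 CpG, and 45.0% held at least 1 GC box, so a GC box is common. Overlapping matches were counted separately. The E-box CAGGTG, searched on both strands, occurred in the SEMA3B and SEMA3F windows and in 20.6% of all windows. The antioxidant core TGACNNNGC occurred in the SEMA3B window and in 13.3% of all windows. For SEMA3C, which was not lower after knockdown in WT cells, the 2 windows had 36.0% and 75.7% GC with 0 and 3 GC boxes. PLXNA1, PLXNA2, NRP2 and SEMA3D did not pass the threshold for all genes (adjusted p under 0.05) for knockdown in WT cells. Their only listed windows had 83.0%, 70.3%, 70.0% and 57.0% GC with 5, 3, 3 and 0 GC boxes. The listed start was 65121 bases from the principal start for SEMA3D and 5479 bases for PLXNA1. For the printed SEMA3B, SEMA3F and PLXND1 windows it was 44, 71 and 142 bases. The SEMA3D and PLXNA1 windows therefore need not be those of the main promoter. These matches describe the letters in each window only.

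SEMA3A, which repels axons through NRP1 and A-type plexins, was the ligand with the largest difference between genotypes. SEMA3A (chromosome 7, 83955777 to 84492724, minus strand) stood at 59.2, 64.7, 71.5 and 58.3 CPM in truncation knockdown cells and at 109.0, 111.7, 112.0 and 97.7 CPM in truncation scramble cells. It stood at 8.60, 6.71, 9.13 and 7.38 CPM in WT knockdown cells and at 8.82, 11.1, 12.1 and 11.2 CPM in WT scramble cells. Every truncation library lay above every WT library, and the truncation knockdown libraries lay below the truncation scramble libraries. Between WT knockdown and WT scramble cells the ranges overlapped. The log2 fold change of truncation over WT was 3.30 ± 0.10 in scramble cells, 9.85-fold, and 3.00 ± 0.10 in knockdown cells. Knockdown over scramble was -0.73 ± 0.08 in truncation cells and -0.43 ± 0.11 in WT cells.

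SEMA3C, a ligand that can use either neuropilin and is known from heart outflow tract development, followed a pattern of its own among the ligands. SEMA3C (chromosome 7, 80742538 to 80922359, minus strand) had 44.3, 44.9, 46.3 and 41.6 CPM in truncation knockdown cells and 53.4, 51.7, 52.0 and 49.3 CPM in truncation scramble cells. It had 50.3, 57.0, 51.7 and 42.5 CPM in WT knockdown cells and 22.9, 24.7, 26.6 and 24.5 CPM in WT scramble cells. WT scramble cells were thus the low group, and the other 3 groups lay between 41.6 and 57.0 CPM. Knockdown over scramble was 1.04 ± 0.07 in WT cells, 2.06-fold, and -0.19 ± 0.07 in truncation cells, with no overlap in either. The truncation-cell value no longer passed the threshold for all genes under upper-quartile scaling (-0.13) or without truncation knockdown replicate 4 (-0.18). Truncation over WT was 1.05 ± 0.07 in scramble cells, 2.07-fold, and -0.18 ± 0.07 in knockdown cells, where the ranges overlapped. That last value no longer passed the threshold for all genes when truncation knockdown replicate 1, 2 or 4, WT knockdown replicate 1, 2 or 3 or WT scramble replicate 2 was left out, at -0.19 to -0.12. Subtracting the WT effect of knockdown on SEMA3C from its truncation-cell effect left -1.23 ± 0.10. Without WT knockdown replicate 2, the highest of its group, this difference was -1.17.

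SEMA3B, a ligand described as a tumour suppressor on the short arm of chromosome 3, was low in both knockdown groups. SEMA3B (chromosome 3, 50267558 to 50277546, plus strand) had 10.7, 11.02, 14.6 and 14.3 CPM in truncation knockdown cells and 37.8, 37.5, 39.9 and 40.7 CPM in truncation scramble cells. It had 16.1, 9.09, 12.8 and 14.7 CPM in WT knockdown cells and 41.2, 39.7, 30.8 and 36.3 CPM in WT scramble cells. All 8 knockdown libraries lay below all 8 scramble libraries. The log2 difference of knockdown over scramble was -1.58 ± 0.12 in truncation cells, 3.00-fold lower, and -1.48 ± 0.12 in WT cells, 2.79-fold lower. For truncation over WT the values were -0.04 ± 0.13 in knockdown cells and 0.06 ± 0.12 in scramble cells, and in both the libraries overlapped.

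SEMA3F, a ligand that acts mainly through NRP2, was lower with each of the 2 changes. SEMA3F (chromosome 3, 50155045 to 50189075, plus strand) had 13.5, 13.9, 13.9 and 13.1 CPM in truncation knockdown cells and 22.3, 22.3, 22.8 and 21.5 CPM in truncation scramble cells. It had 25.6, 17.3, 22.8 and 25.1 CPM in WT knockdown cells and 34.1, 34.6, 30.8 and 30.7 CPM in WT scramble cells. Truncation knockdown cells were the lowest group and WT scramble cells the highest, while truncation scramble and WT knockdown cells, at means of 22.2 and 22.7 CPM, overlapped. In SEMA3F the truncation over WT value was -0.73 ± 0.09 in knockdown cells and -0.56 ± 0.09 in scramble cells. That of knockdown over scramble was -0.68 ± 0.09 in truncation cells and -0.51 ± 0.09 in WT cells. Without WT knockdown replicate 2, the lowest of its group at 17.3 CPM, the WT value was -0.40 and the knockdown effect in truncation minus WT cells was -0.28, against -0.17 with it.

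SEMA3D, a ligand of developing heart and vessels, was near the lower limit of measurement. SEMA3D (chromosome 7, 84995553 to 85186855, minus strand) had 38 to 79 counts per library. It averaged 1.84 ± 0.51 CPM in truncation knockdown cells, 1.56 ± 0.29 CPM in truncation scramble cells, 2.07 ± 0.45 CPM in WT knockdown cells and 1.66 ± 0.28 CPM in WT scramble cells (SD, n = 4 each). The 4 groups overlapped, and a difference between them was not detectable at this depth.

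**Figure D1:**
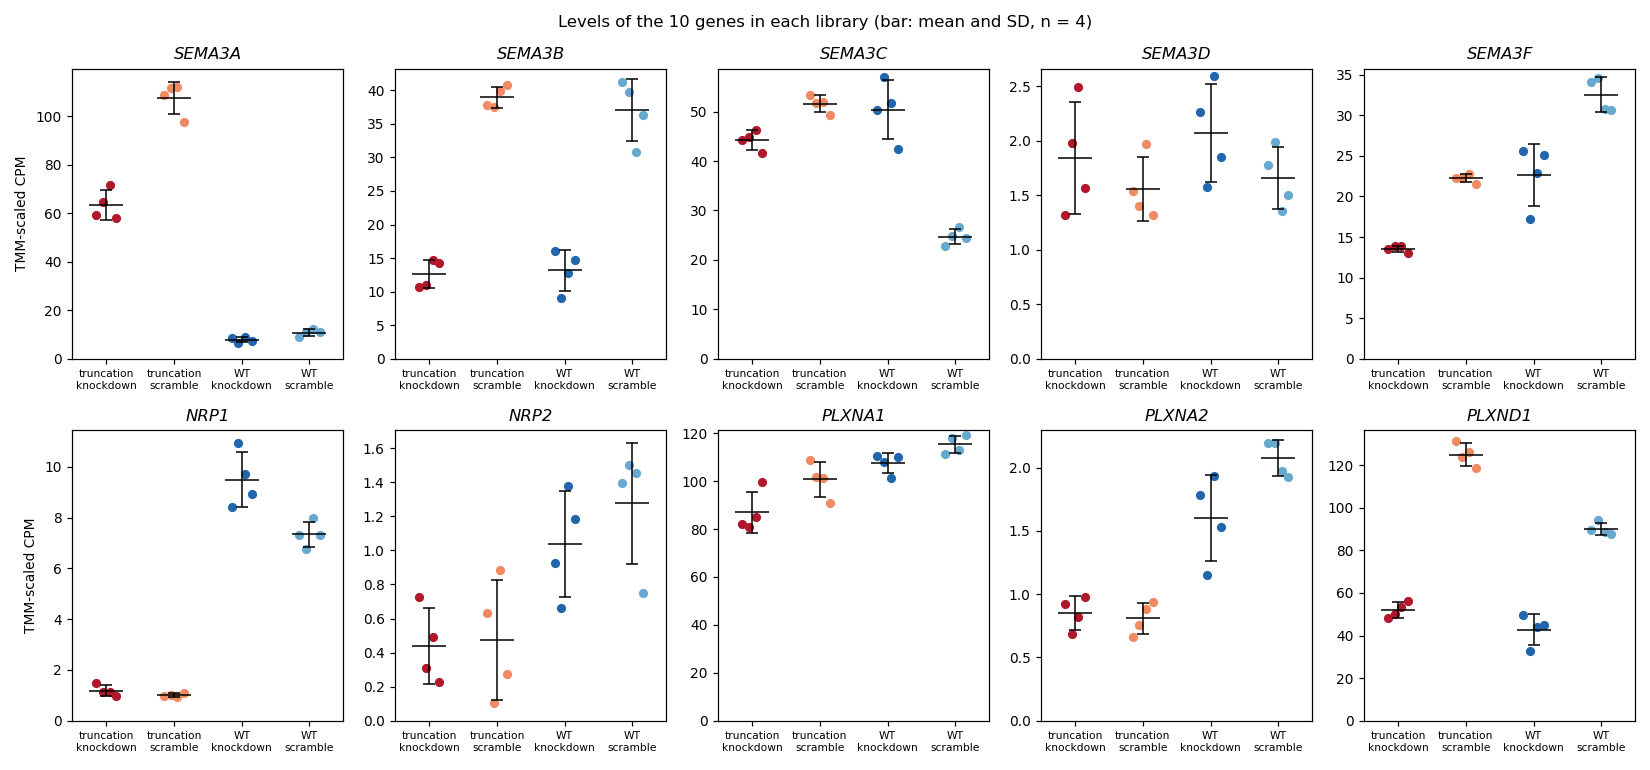
Level of each of the 10 genes in TMM-scaled CPM (vertical axis, starting at 0, a separate scale for each gene) in the 4 groups. Points are libraries and bars the mean and SD of 4 libraries. SEMA3A is high and NRP1 low in both truncation groups, SEMA3B and PLXND1 are low in both knockdown groups, and SEMA3C is low in WT scramble cells alone, at 22.9 to 26.6 CPM.

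The co-receptor NRP1, which binds SEMA3A and VEGF, was low wherever the edit was present. NRP1 (chromosome 10, 33177492 to 33336262, minus strand) had 1.49, 1.13, 1.15 and 0.980 CPM in truncation knockdown cells and 0.980, 0.993, 0.951 and 1.11 CPM in truncation scramble cells. It had 8.43, 10.9, 9.72 and 8.92 CPM in WT knockdown cells and 7.32, 6.77, 7.98 and 7.33 CPM in WT scramble cells. The highest truncation library, at 1.49 CPM, lay under the lowest WT library, at 6.77 CPM. In counts the truncation libraries held 28 to 45 and the WT libraries 194 to 313, so the truncation values carry the larger counting error. NRP1 in truncation over WT was at -2.99 ± 0.13 in knockdown cells, 7.94-fold lower, and -2.88 ± 0.14 in scramble cells, 7.34-fold lower. For knockdown over scramble NRP1 was at 0.27 ± 0.17 in truncation cells, with overlap, and 0.38 ± 0.10 in WT cells, without overlap. The WT value was 0.23 with WT knockdown replicates 2 and 3 both left out, a setting chosen after seeing the data, and no longer passed the threshold for all genes.

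NRP2, the co-receptor that prefers SEMA3F, had the lowest mean level per kb of exon of the 10 genes in each group. NRP2 (chromosome 2, 205681990 to 205798133, plus strand) had 0.727, 0.307, 0.492 and 0.229 CPM in truncation knockdown cells and 0.630, 0.103, 0.883 and 0.277 CPM in truncation scramble cells. It had 0.925, 0.664, 1.38 and 1.18 CPM in WT knockdown cells and 1.39, 1.5, 1.46 and 0.751 CPM in WT scramble cells. These were 3 to 43 counts per library, and truncation and WT libraries overlapped under either siRNA. Truncation over WT was -1.23 ± 0.41 in knockdown cells and -1.44 ± 0.40 in scramble cells. Leaving out any 1 library kept the scramble value between -1.92 and -1.09. In knockdown cells NRP2 passed the threshold for all genes with all libraries. It no longer did without truncation knockdown replicate 2 (-1.10), truncation knockdown replicate 4 (-1.02) or WT knockdown replicate 3 (-1.06). NRP2 was picked with its values known, so this is a description and not a test result. The antisense genes AL121748.2 and AC007362.1 overlap NRP1 and NRP2 in the annotation, and SEMA3F-AS1 overlaps SEMA3F, at 0.515 CPM in truncation knockdown, 0.413 CPM in truncation scramble, 0.354 CPM in WT knockdown and 0.420 CPM in WT scramble cells. The strand setting of the counting is not given in the sources used here, so reads from a gene and its antisense partner cannot be told apart.

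PLXND1, a plexin of the vessel wall that binds SEMA3E directly and SEMA3A and SEMA3C through neuropilins, was lower after knockdown in both genotypes. PLXND1 (chromosome 3, 129555175 to 129606818, minus strand) had 48.2, 50.1, 53.3 and 56.5 CPM in truncation knockdown cells and 131, 124, 126 and 119 CPM in truncation scramble cells. It had 49.9, 32.7, 43.8 and 44.8 CPM in WT knockdown cells and 89.5, 94.1, 88.7 and 87.7 CPM in WT scramble cells. All 8 knockdown libraries lay below all 8 scramble libraries, and among scramble cells every truncation library lay above every WT library. Knockdown over scramble was -1.23 ± 0.08 in truncation cells, 2.35-fold lower, and -1.06 ± 0.08 in WT cells, 2.09-fold lower. Truncation over WT was 0.29 ± 0.08 in knockdown cells, with overlap, and 0.46 ± 0.08 in scramble cells. The value in knockdown cells was 0.18 without WT knockdown replicate 2, the lowest of its group. With WT knockdown replicates 2 and 3 both left out, a setting chosen after seeing the data, it was 0.15 and no longer passed the threshold for all genes.

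PLXNA1 and PLXNA2 are signal-transducing partners of the neuropilins. PLXNA1 (chromosome 3, 126988594 to 127037392, plus strand) had 81.9, 81.0, 85.2 and 99.7 CPM in truncation knockdown cells and 109.0, 101.6, 101.5 and 91.0 CPM in truncation scramble cells. It had 110.5, 108.1, 101.4 and 110.2 CPM in WT knockdown cells and 111.5, 117.8, 113.1 and 119.1 CPM in WT scramble cells. Its differences were small: truncation over WT was -0.30 ± 0.06 in knockdown cells and -0.21 ± 0.06 in scramble cells, each without overlap. Without truncation scramble replicate 4 the scramble value was -0.15 and no longer passed the threshold for all genes. Knockdown over scramble for PLXNA1 was -0.18 ± 0.06 in truncation cells, with overlap, and -0.09 ± 0.06 in WT cells, without overlap. The truncation-cell value was -0.28 without truncation knockdown replicate 4, the highest of its group. It no longer passed the threshold for all genes under upper-quartile scaling (-0.12), without truncation knockdown replicate 2 or without truncation scramble replicate 1 (-0.16 each). PLXNA2 (chromosome 1, 208022242 to 208244320, minus strand) averaged 0.852 ± 0.131 CPM in truncation knockdown, 0.809 ± 0.122 CPM in truncation scramble, 1.60 ± 0.342 CPM in WT knockdown and 2.08 ± 0.142 CPM in WT scramble cells (SD, n = 4 each). Truncation over WT for PLXNA2 was -0.90 ± 0.20 in knockdown cells and -1.37 ± 0.20 in scramble cells, each without overlap. Knockdown over scramble for PLXNA2 was 0.11 ± 0.22 in truncation cells and -0.36 ± 0.18 in WT cells, and the libraries overlapped in both. The WT value was -0.48 without WT knockdown replicate 3 and then passed the threshold for all genes.

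**Figure D2:**
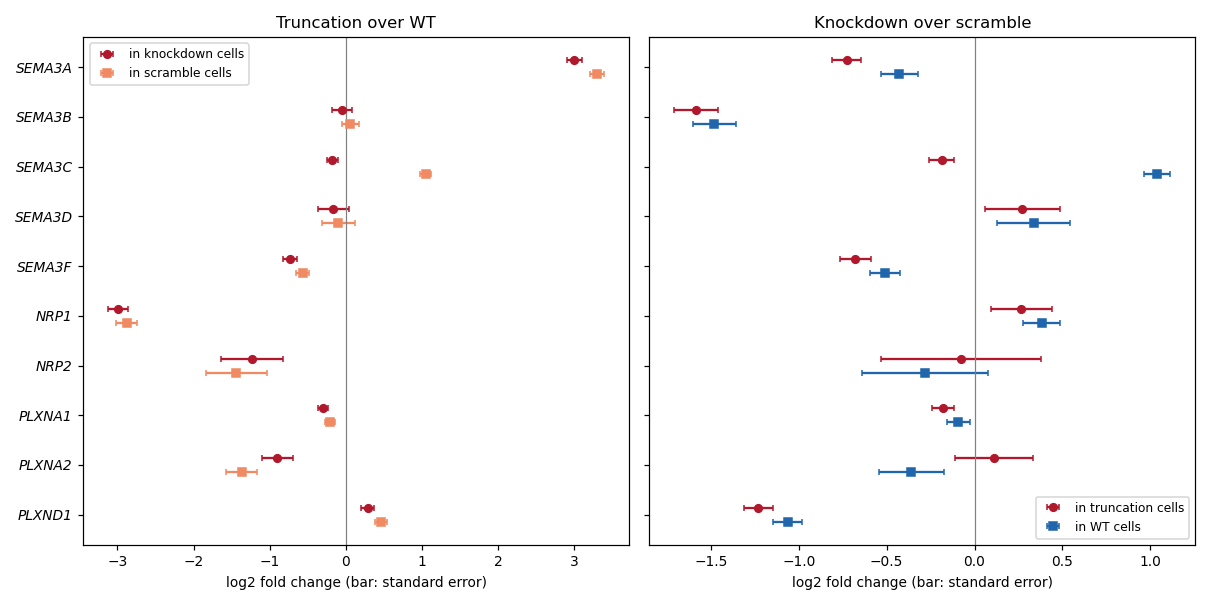
Log2 fold change of each gene (horizontal axis, bars are standard errors of the edgeR fit) for truncation over WT (left) and knockdown over scramble (right), 4 libraries per group. SEMA3A at 3.00 and 3.30 and NRP1 at -2.99 and -2.88 are the extremes on the left, and SEMA3C is on opposite sides of 0 in the 2 comparisons of each panel.

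Counted with the threshold used for all genes (adjusted p under 0.05), 8 of the 10 genes passed for truncation over WT in scramble cells, 3 higher and 5 lower, where 44.0% of all tested genes did. Their median log2 fold change was -0.16 and that of all tested genes -0.02. In knockdown cells the same contrast gave 2 higher and 6 lower, where 45.5% of all genes passed, with medians of -0.24 and 0.00. Knockdown over scramble gave 6 of 10 in truncation cells, 0 higher and 6 lower, where 56.7% of all genes passed, with medians of -0.18 and 0.02. In WT cells knockdown gave 2 higher and 4 lower, where 50.3% of all genes passed, with medians of -0.32 and 0.01. For the interaction, in which the WT effect of knockdown is subtracted from the truncation-cell effect, SEMA3C alone of the 10 passed, where 5.69% of all genes did. Ranges did not overlap for 7 of 10 genes in truncation over WT in scramble cells, where 42.6% of all genes showed this, and for 5 in knockdown cells, where 35.9% did. For knockdown over scramble this held for 5 of 10 genes in truncation cells and 6 in WT cells, where 53.4% and 41.0% of all genes showed it. The genes were picked on these contrasts, so the counts are a description.

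Per kilobase of exon, the make-up of the ligand pool differed between the genotypes and between the siRNAs. The 7 class 3 semaphorins, SEMA3E and SEMA3G included, summed to 20.1 ± 1.24 CPM per kb in truncation knockdown cells, 32.7 ± 0.957 in truncation scramble cells, 17.4 ± 1.22 in WT knockdown cells and 20.4 ± 0.970 in WT scramble cells (SD, n = 4 each). SEMA3A made up 33.6% ± 1.20 of this sum in truncation knockdown, 35.1% ± 1.33 in truncation scramble, 4.87% ± 0.40 in WT knockdown and 5.67% ± 0.93 in WT scramble cells. With knockdown the SEMA3C share was 35.1% against 25.2% with scramble in truncation cells, and 46.4% against 19.3% in WT cells. The SEMA3B share was 10.9% against 20.7% in truncation cells, and 13.1% against 31.3% in WT cells. In truncation scramble cells the order by level per kb was SEMA3A at 11.5, SEMA3C at 8.23, SEMA3B at 6.76, SEMA3F at 4.61 and SEMA3G at 1.13 CPM per kb, with no overlap between neighbours. SEMA3E at 0.270 and SEMA3D at 0.193 came last and overlapped. In WT scramble cells SEMA3F at 6.74 and SEMA3B at 6.42 CPM per kb led and overlapped. SEMA3C at 3.94, SEMA3G at 1.78 and SEMA3A at 1.15 followed, and SEMA3E and SEMA3D, at 0.207 and 0.205, came last.

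**Figure D3:**
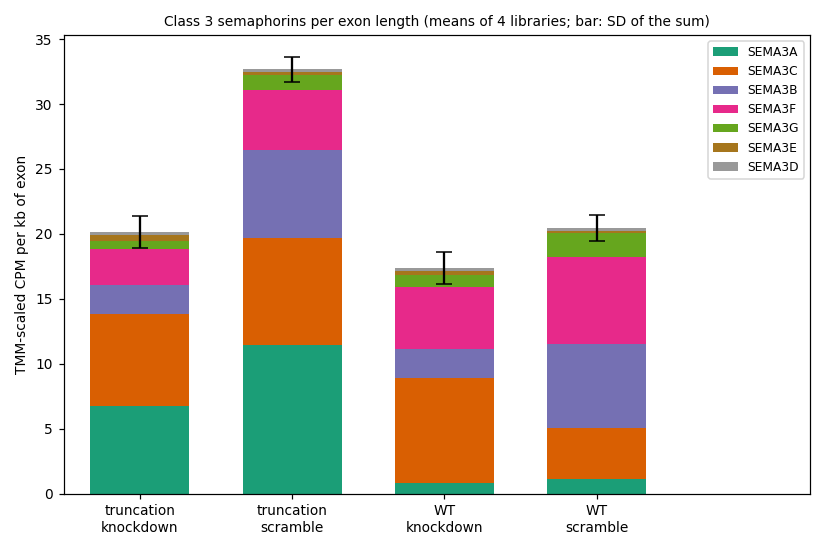
Stacked mean level of the 7 class 3 semaphorins in TMM-scaled CPM per kb of exon (vertical axis) in the 4 groups. The bar on each stack is the SD of the sum over 4 libraries. The SEMA3A layer is 6.77 and 11.5 CPM per kb in truncation knockdown and truncation scramble cells, against 0.849 and 1.15 CPM per kb in WT knockdown and WT scramble cells.

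The receptors were far from evenly expressed. NRP1 and NRP2 together gave 0.134 CPM per kb in truncation knockdown, 0.122 in truncation scramble, 0.899 in WT knockdown and 0.730 in WT scramble cells. The 9 plexins summed to 69.0 ± 8.02 CPM per kb in truncation knockdown, 96.4 ± 3.62 in truncation scramble, 89.3 ± 5.89 in WT knockdown and 116 ± 4.12 in WT scramble cells (SD, n = 4 each). PLXNB2, a receptor for class 4 semaphorins, made up 64.7% to 69.1% of that sum as group means. PLXND1 gave 5.34 CPM per kb in truncation knockdown, 12.8 in truncation scramble, 4.39 in WT knockdown and 9.24 in WT scramble cells. PLXNA1 gave 7.94 CPM per kb in truncation knockdown, 9.21 in truncation scramble, 9.83 in WT knockdown and 10.5 in WT scramble cells. PLXND1 thus lay above PLXNA1 in truncation scramble cells and below it in the other 3 groups, with no overlap between the libraries of the 2 genes in any group.

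The rest of the pathway was read from a list of 60 other genes, of which 51 were tested. PLXNA4, SEMA5A, SEMA5B, SEMA6D, VEGFC, FLT1, FLT4, NRCAM and CRMP1 were too low. Truncation over WT in scramble cells changed 26 of the 51, 10 higher and 16 lower, where 44.0% of all tested genes passed. In knockdown cells it changed 32, 11 higher and 21 lower, where 45.5% of all genes passed. Knockdown over scramble changed 35 in truncation cells, 18 higher and 17 lower, where 56.7% of all genes passed, and 36 in WT cells, 20 higher and 16 lower, where 50.3% did. Median log2 fold changes of the 51 were -0.08, -0.14, 0.04 and -0.03 in the same order of comparisons. Truncation over WT and knockdown over scramble share libraries, so these counts are not independent of each other. The list was chosen with earlier results of these data known. Adjusted p-values given below for its genes are therefore not those of a list set independently of the data.

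Of the ligands closest to the 5 above, SEMA3G fell in all 4 comparisons and SEMA3E rose in 3. SEMA3G, a ligand of vessel endothelium, averaged 3.16 CPM in truncation knockdown, 5.68 CPM in truncation scramble, 4.86 CPM in WT knockdown and 8.93 CPM in WT scramble cells. By edgeR's quasi-likelihood test with Benjamini-Hochberg adjustment, knockdown over scramble for SEMA3G was -0.81 ± 0.15 in truncation cells (adjusted p = 3.92e-05) and -0.86 ± 0.13 in WT cells (adjusted p = 7.65e-06). Truncation over WT for SEMA3G was -0.61 ± 0.15 in knockdown cells (edgeR adjusted p = 0.00146) and -0.67 ± 0.13 in scramble cells (adjusted p = 0.000218). SEMA3E, the direct ligand of PLXND1, averaged 3.73 CPM in truncation knockdown, 2.27 CPM in truncation scramble, 2.47 CPM in WT knockdown and 1.74 CPM in WT scramble cells. It rose with knockdown by 0.75 ± 0.17 in truncation cells (edgeR adjusted p = 0.000498) and by 0.52 ± 0.18 in WT cells (adjusted p = 0.0204), whereas its receptor PLXND1 was lower in both. Truncation over WT for SEMA3E was 0.60 ± 0.17 in knockdown cells (edgeR adjusted p = 0.00458) and 0.37 ± 0.18 in scramble cells (adjusted p = 0.108).

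Of the other plexins, PLXNA3, an A-type plexin used by SEMA3A and SEMA3F, showed an effect of knockdown that depended on genotype. It averaged 79.0 CPM in truncation knockdown and 44.1 CPM in truncation scramble cells, and 106.7 CPM in WT knockdown and 107.4 CPM in WT scramble cells. Knockdown over scramble was 0.88 ± 0.08 in truncation cells (edgeR adjusted p = 2.56e-09) and 0.00 ± 0.08 in WT cells (adjusted p = 0.991), and the interaction was 0.87 ± 0.12 (adjusted p = 6.8e-05). PLXNA3 fell with truncation, at -0.42 ± 0.08 in knockdown cells (edgeR adjusted p = 0.000135) and -1.30 ± 0.08 in scramble cells (adjusted p = 4.33e-12). PLXNB2 averaged 324.3 CPM in truncation knockdown, 478 CPM in truncation scramble, 443.4 CPM in WT knockdown and 581.8 CPM in WT scramble cells, and it fell in all 4 comparisons, with log2 fold changes of -0.53 ± 0.07 for knockdown in truncation cells (edgeR adjusted p = 3.09e-07) and -0.30 ± 0.07 for truncation in scramble cells (adjusted p = 0.000786) at the ends. PLXNB1, a receptor for SEMA4D, fell in 3 of 4 comparisons, and its interaction of 0.37 ± 0.13 did not pass (edgeR adjusted p = 0.082). PLXNB3 averaged 5.61 to 6.96 CPM and passed in 1 of the 4, truncation over WT in knockdown cells, where it rose by 0.32 ± 0.12 (edgeR adjusted p = 0.0379). PLXNC1, a receptor for SEMA7A, averaged 1.16 to 1.93 CPM and passed in 0 of the 4; WT scramble replicate 4 alone had 4.29 CPM. PLXNA4 had at most 7 counts in any library.

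Among the class 4 to 7 semaphorins, SEMA7A, which is anchored to the membrane and acts on integrins and PLXNC1, changed in all 4 comparisons. It averaged 44.2 CPM in truncation knockdown, 22.1 CPM in truncation scramble, 78.7 CPM in WT knockdown and 44.8 CPM in WT scramble cells. By edgeR, knockdown over scramble was 1.04 ± 0.09 in truncation cells (adjusted p = 6.7e-10) and 0.82 ± 0.09 in WT cells (adjusted p = 2.76e-08). Truncation over WT was -0.82 ± 0.09 in knockdown cells (edgeR adjusted p = 3.34e-08) and -1.04 ± 0.09 in scramble cells (adjusted p = 1.54e-09). SEMA6A, a transmembrane ligand of PLXNA2, rose with truncation in knockdown cells, at 21.9 CPM in truncation knockdown and 13.5 CPM in WT knockdown cells (log2 0.71 ± 0.09, edgeR adjusted p = 2.79e-07). For truncation in scramble cells SEMA6A also passed the threshold.

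FURIN and PCSK7, proteases that process precursor proteins, fell with knockdown. FURIN, a proprotein convertase that cleaves class 3 semaphorins, averaged 37.2 CPM in truncation knockdown and 96.2 CPM in truncation scramble cells, a log2 fold change of -1.34 ± 0.07 (edgeR adjusted p = 3.67e-14). In WT cells FURIN averaged 59.6 CPM in knockdown and 132.1 CPM in scramble cells, -1.14 ± 0.07 (edgeR adjusted p = 9.51e-13). PCSK7, a convertase of the same family, fell by 1.43 ± 0.09 in truncation cells (edgeR adjusted p = 2e-12) and by 1.13 ± 0.09 in WT cells (adjusted p = 2.69e-10). PCSK5, another convertase, rose with knockdown by 0.78 ± 0.08 in truncation cells (edgeR adjusted p = 4.09e-09) and by 0.48 ± 0.08 in WT cells (adjusted p = 1.37e-05). Of the 5 genes of the protease list, 5 changed with knockdown in truncation cells, 2 higher and 3 lower, where 56.7% of all tested genes passed. In WT cells 4 changed, 2 higher and 2 lower, where 50.3% of all genes passed.

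Inside the cell, semaphorin signalling runs through CRMP proteins and kinases that act on actin and microtubules. DPYSL2, the collapsin response mediator CRMP2, averaged 129.1 CPM in truncation scramble and 64.2 CPM in WT scramble cells (log2 0.99 ± 0.06, edgeR adjusted p = 1.7e-12). The kinase CDK5, which phosphorylates CRMP2, fell with knockdown by 1.61 ± 0.09 in truncation cells (edgeR adjusted p = 3.11e-13) and by 1.09 ± 0.09 in WT cells (adjusted p = 6.2e-10). LIMK1, which inactivates cofilin, rose with truncation, by 0.46 ± 0.07 in knockdown cells (edgeR adjusted p = 3.42e-06) and by 0.72 ± 0.06 in scramble cells (adjusted p = 1.81e-09). RND1, which binds plexins, rose with truncation by 0.66 ± 0.12 in knockdown cells (edgeR adjusted p = 0.000105) and by 0.76 ± 0.14 in scramble cells (adjusted p = 6.27e-05), and with knockdown in WT cells by 0.63 ± 0.14 (adjusted p = 0.00043). It also rose with knockdown in truncation cells, passing the threshold at means of 5.53 CPM in knockdown and 3.92 CPM in scramble cells. MICAL2, an actin-oxidising enzyme, fell with truncation in knockdown cells by 0.80 ± 0.08 (edgeR adjusted p = 1.25e-08). PGF, a VEGF-family ligand that binds NRP1, rose with knockdown in WT cells by 0.50 ± 0.08 (edgeR adjusted p = 2.39e-05). The threshold was also passed by DPYSL2 for truncation in knockdown cells, MICAL2 for truncation in scramble cells and PGF for knockdown in truncation cells.

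The interaction passed for 5 of the 51 genes, 1 higher and 4 lower, where 5.69% of all tested genes passed. DPYSL2 at -0.57 ± 0.09 (edgeR adjusted p = 0.000287), CDK5 at -0.52 ± 0.13 (adjusted p = 0.0182) and GIPC1, an adaptor that binds the NRP1 tail, at -0.44 ± 0.10 (adjusted p = 0.00898) were below 0. SEMA4F, named after its values were seen, was at -0.42 ± 0.11 (edgeR adjusted p = 0.0237), and PLXNA3 was the gene above 0. Without WT knockdown replicate 2 the interaction passed for 12 of the pathway genes. Truncation knockdown replicate 4 had the highest PLXNA3 level of its group, 94.5 CPM against 72.5 to 74.8 CPM.

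**Figure D4:**
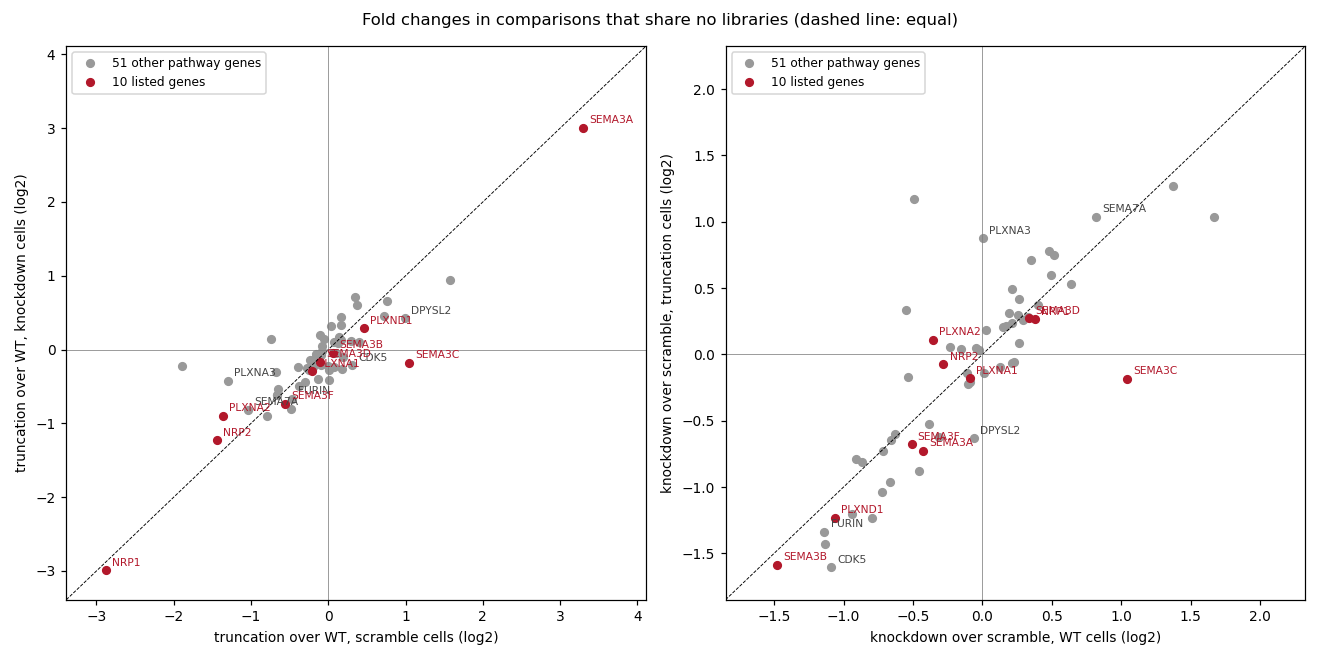
Log2 fold change of the 10 genes (red) and the 51 other pathway genes (grey) in pairs of comparisons that share no libraries, truncation over WT in knockdown against scramble cells (left) and knockdown over scramble in truncation against WT cells (right). The dashed line marks equal values. SEMA3C lies off the line in both panels, with -0.18 in knockdown cells against 1.05 in scramble cells on the left and -0.19 in truncation cells against 1.04 in WT cells on the right, while SEMA3A and NRP1 lie near it at the ends of the left panel.

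For 8 of the 10 genes the group means spanned at least 1 on the log2 scale, and the genes with the most similar pattern over the 4 group means were looked up among 12317 genes. Likeness is the root mean square difference of the centred log2 group means, where 0 is identical. SEMA3A was nearest to COL6A3 (0.111), a collagen VI chain, at 4.57 CPM in truncation knockdown, 7.09 CPM in truncation scramble, 0.577 CPM in WT knockdown and 0.823 CPM in WT scramble cells, and to HSPB8 (0.142), a small heat shock protein. NRP1 was nearest to PROM1 (0.178), which encodes the surface protein CD133, at 3.97 CPM in truncation knockdown, 3.92 CPM in truncation scramble, 25.0 CPM in WT knockdown and 22.8 CPM in WT scramble cells, and to TRHDE (0.281). SEMA3B was nearest to RELL2 and ADIPOR1 (0.058 each), and PLXND1 to HSPG2 (0.067), which encodes perlecan, and AMN (0.083). SEMA3F was nearest to SH3PXD2A (0.014) and SAMD1 (0.033). SEMA3C was nearest to TRPV3 (0.177) and MAMDC2 (0.187). NRP2 was nearest to EPAS1 (0.036) and RFTN1 (0.060), and PLXNA2 to TMEM145 (0.047) and TRIM15 (0.073). The likeness rests on 4 points per gene. For NRP2, at 3 to 43 counts per library, and PLXNA2, at 19 to 63, the group means carry a large counting error. Their nearest genes are therefore uncertain.

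Several of the genes lie near each other, by GENCODE release 29 on GRCh38. SEMA3F and SEMA3B are 78.5 kb apart on chromosome 3 with GNAT1, SLC38A3 and GNAI2 between them. Both were lower after knockdown, and SEMA3F was also lower with truncation, where the SEMA3B libraries overlapped. On chromosome 7, SEMA3E, SEMA3A and SEMA3D follow each other with 0 protein-coding genes between them, at gaps of 306.7 kb and 502.8 kb. Truncation over WT in scramble cells was 0.37 ± 0.18 for SEMA3E, 3.30 ± 0.10 for SEMA3A and -0.10 ± 0.22 for SEMA3D, and no test was made of the difference between these genes.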

How the data were processed

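RNA-seq of 16 HCT116 libraries was analysed from the count and signal files of the series. The authors deposited raw counts per Ensembl gene, those counts after a filter, and a signal file of CPM scaled by TMM. The submitters' processing notes name STAR 2.7.3a, DESeq2, edgeR, limma and hg38 without their roles. How reads were counted, with which annotation and strand, is not given in the sources used here. Deposited signal values matched CPM recomputed with TMM from the filtered counts to a relative difference of 5.0e-15.

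Libraries were grouped by description, genotype and treatment. For 4 truncation knockdown libraries the title says scramble, whereas description and treatment name the OTUD5 siRNA, which was followed. The titles call the libraries of each group biological replicates ("bio rep"). How separate their cultures were is not described in the labels, so p-values measure only the spread between these libraries. Libraries of different groups with the same number were not treated as pairs in the main fit. Of 24 such pairs, 8 had a correlation of deviations over 0.1, and the values ran from -0.24 to 0.37. Libraries with different numbers were not compared in this way, so pairing was not tested.

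Raw counts were filtered with filterByExpr (17104 genes left), scaled by TMM and fitted with edgeR 4.0.16 (R 4.3.3) by quasi-likelihood with 1 coefficient per group, two-sided, and Benjamini-Hochberg adjustment over all tested genes at a threshold of 0.05. The script was tested on simulated data. The 10 genes, the pathway list and the marker lists were chosen with earlier results of these data known. Besides the 10, the named genes were SEMA3E, SEMA3G, the 6 other plexins and, per comparison, up to 3 called pathway genes at each end whose mean log2 CPM was 1 or more and whose libraries did not overlap (not required for the interaction). Exon lengths are from GENCODE release 29, which may differ from the annotation counted, and coordinates are 1-based on GRCh38. Alternatives were upper-quartile scaling, DESeq2 1.42.0, no low-count filter, a fit of the compared groups only, a replicate block and leaving out each library.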

Additional observations from a re-analysis of the deposited data

Results flagged for a closer look

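Of 124 groups of 4 values examined over the 10 genes and the 21 pathway genes named here, 7 held a library far from the other 3; chance gives about 1 in 20. NRP2 was 0.751 CPM in WT scramble replicate 4, against 1.39 to 1.5 CPM in the other 3. PLXNC1 was 4.29 CPM in the same library, against 1.14 to 1.15 CPM. That library also held 326 PTPRC counts, against 1 to 25 in the other 15 libraries, and 70 LYZ counts, against 0 to 40; the part of this in the PLXNC1 and NRP2 values was not tested. PLXNA3 was 94.5 CPM in truncation knockdown replicate 4, against 72.5 to 74.8 CPM, and RND1 was 4.57 CPM there, against 5.78 to 5.97 CPM. SEMA7A was 20.2 CPM in truncation scramble replicate 3, against 22.4 to 22.8 CPM, and PLXNA4 was 0.102 CPM there, 3 counts, with 0 in the other 3. SEMA4F was 31 CPM in truncation scramble replicate 2, against 29.4 to 29.6 CPM.

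The effect of knockdown differed between genotypes, by edgeR's interaction (truncation minus WT cells), for PLXNA3 at 0.87, GIPC1 at -0.44, DPYSL2 at -0.57, CDK5 at -0.52 and SEMA4F at -0.42. SEMA3C was lower in every knockdown library of truncation cells and higher in every knockdown library of WT cells than in the scramble libraries, a difference of -1.23. It passed the threshold used for all genes, but SEMA3C was picked on these values, so this is a description and no p-value is given.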

How the results depend on the processing

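Over 1090 recomputed log2 fold changes of the 10 genes, 1060 moved by less than 1 standard error, 0 reversed beyond the threshold, 21 lost a call and 5 gained one. The 10 genes were picked with their values known, so a call of theirs lost or gained is a description and not a test result. The interaction count depended on WT knockdown replicate 2: 974 genes passed with all libraries, 1661 without it, 1642 with WT knockdown replicates 2 and 3 both left out (chosen after seeing the data) and 1470 by DESeq2, and the pathway genes passing were 5, 12, 11 and 8. Leaving out each library in turn gave 653 to 1661 genes and 5 to 12 pathway genes. Upper-quartile scaling turned the interaction split to 502 higher and 397 lower, against 350 and 624. The SEMA3C value for truncation over WT in knockdown cells lost its call under 10 settings, at -0.12 without WT knockdown replicate 2. SEMA3C and PLXNA1 lost theirs for knockdown in truncation cells under upper-quartile scaling, at -0.13 and -0.12, and PLXNA1 lost its call for truncation in scramble cells without truncation scramble replicate 4, at -0.15. NRP2 lost its call for truncation in knockdown cells without truncation knockdown replicate 2 or 4 or WT knockdown replicate 3. SEMA3F and PLXND1 gained an interaction call without WT knockdown replicate 2, at -0.28 each. With replicates 2 and 3 both left out, NRP1 lost its call for knockdown in WT cells, at 0.23, and PLXND1 lost its call for truncation in knockdown cells, at 0.15.

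With the replicate number as a block the genes passing were 7704 and 28 pathway genes for truncation in scramble cells, 8755 and 36 for knockdown in WT cells, 9858 and 35 for knockdown in truncation cells, 7926 and 31 for truncation in knockdown cells, and 1150 and 6 for the interaction. No call among the 10 genes changed under the block.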
